A study of Mus musculus with 30 samples.

Results

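A set of 9 genes of the retinoic acid pathway were followed across mouse embryonic stem cells that had lost cofactors of cohesin. The 9 genes were Stra6, Aldh1a2, Dhrs3, Crabp1, Crabp2, Rarb, Rarg, Cyp26a1 and Stra8. They were taken by symbol from the 55421 genes of the deposited count table, and all 9 were found there. All 9 also passed the filter on low counts, which left 19868 genes for testing.

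Polyadenylated RNA of E14 cells, a male mouse embryonic stem cell line of 129P2/Ola background, was sequenced in 5 engineered lines. Each line gave 3 untreated libraries and 3 treated for 24 h, hence 10 groups and 30 libraries. Every line expressed Tir1, the plant protein that destroys proteins fused to an auxin-inducible degron (AID) when auxin is present. The TIR1 line (EN148.10) had no fusion beside Tir1 and served to measure auxin itself. The PDS5AB line (EN293.1) carried PDS5A-AID and PDS5B-AID, and the WAPL line (CMW184) carried WAPL-AID. These 3 lines received auxin at 500 µM. The PDS5AB-NIPBL line (EN331.2) carried PDS5A-AID, PDS5B-AID, NIPBL-FKBP and RAD21-Halo, and the WAPL-NIPBL line (EN382.1) carried WAPL-AID, NIPBL-FKBP and RAD21-Halo. Both received auxin with dTAG-13 at 500 nM, the compound that destroys FKBP fusions, and are called the combined lines. PDS5A, PDS5B and WAPL help to release or pause the chromatin loop-forming complex cohesin, and NIPBL helps it to extrude loops. Each line is 1 named cell line, so a difference between lines cannot be told apart from a difference between clones. The labels do not say whether the 3 replicates of a group came from separate cultures, so the p-values measure the spread between these samples, which may be technical.

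Retinol from the blood or serum enters cells through STRA6, is oxidised to retinal and then to retinoic acid, and is cleared by enzymes of the CYP26 family. Retinoic acid binds the nuclear receptors RARA, RARB and RARG, which sit with RXR partners on DNA at pairs of short direct repeats and switch from repression to activation when the ligand arrives. Embryonic stem cells respond to retinoic acid by leaving the pluripotent state, and several of the 9 genes, among them Rarb, Cyp26a1 and Stra8, are classic targets of the ligand.

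The promoters of Rarb and Cyp26a1 are shown because they alone among the members' promoters held the letters of the classic response element, yet the RNA of both genes was the scarcest of the 9. Each stretch is the 100 bases before the RefSeq start on the GRCm38.p6 build, 5′ to 3′ on the gene's strand, with the element in capitals. The Rarb stretch lies at chr14:16575477-16575576 on the minus strand, and the Cyp26a1 stretch at chr19:37697708-37697807 on the plus strand.
Rarb: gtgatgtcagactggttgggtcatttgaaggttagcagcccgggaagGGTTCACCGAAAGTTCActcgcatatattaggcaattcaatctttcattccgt
Cyp26a1: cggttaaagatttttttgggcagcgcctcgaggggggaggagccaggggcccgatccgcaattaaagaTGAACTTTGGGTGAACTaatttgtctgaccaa
The search took half-sites that read AGGTCA or else AGTTCA, and with G in first place GGGTCA or else GGTTCA. Any 2 of them in the same orientation and 5 bases apart, on either strand, counted as a match. In Rarb the repeat reads along the gene's strand, 53 to 37 bases before the start. In Cyp26a1 it lies on the opposite strand, where it reads AGTTCACCCAAAGTTCA, 32 to 16 bases before the start. The RefSeq table held windows of 300 bases for 8 of the 9 genes (14 windows, none for Crabp2), and the repeat was in 1 window each of these 2 genes. Of all 32851 windows in that table, 32 (0.0974%) held it. The same half-sites 2 bases apart were in none of the members' windows and in 88 of all windows (0.268%). These are matches of letters and do not show binding.

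The libraries held 19632704 to 45539021 counted fragments. The summed level of 8 pluripotency markers lay between 3047 and 5851 CPM (counts scaled to a common library size with edgeR's TMM and cpm) in every library, and each of the 8 was detected in every library, from 18 counts upwards for Dppa3 and from 3045 for the other 7, as the labelled cell type would have it. Degrons act on protein, so RNA does not check the depletion. Per the library numbers in the labels, treated and untreated PDS5AB cells and untreated TIR1 cells were numbered from 1 to 21, and the other 21 libraries from 25 upwards. The TIR1 auxin effect therefore ran across both sets of numbers, and there the set and the treatment cannot be told apart. This also touches every comparison with untreated TIR1 cells except that of PDS5AB cells, every difference from the TIR1 effect, and the comparisons of PDS5AB with WAPL or PDS5AB-NIPBL cells. The treatment effects of the 4 degron lines and the comparisons of WAPL-NIPBL with WAPL cells stay within a set.

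Levels differed widely among the 9 genes. On the scale of RPKM (CPM per kilobase of exon), the median over the 30 libraries was 24.6 for Rarg and 19.04 for Stra8. It was 7.92 for Crabp1, 6.05 for Crabp2, 2.07 for Dhrs3 and 1.90 for Aldh1a2. The 3 scarcest were Stra6 at 0.276, Rarb at 0.0945 and Cyp26a1 at 0.0683. Among all genes tested, the median RPKM of Rarg stood at percentile 88.7 and that of Cyp26a1 at percentile 6.44.

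**Figure D1:**
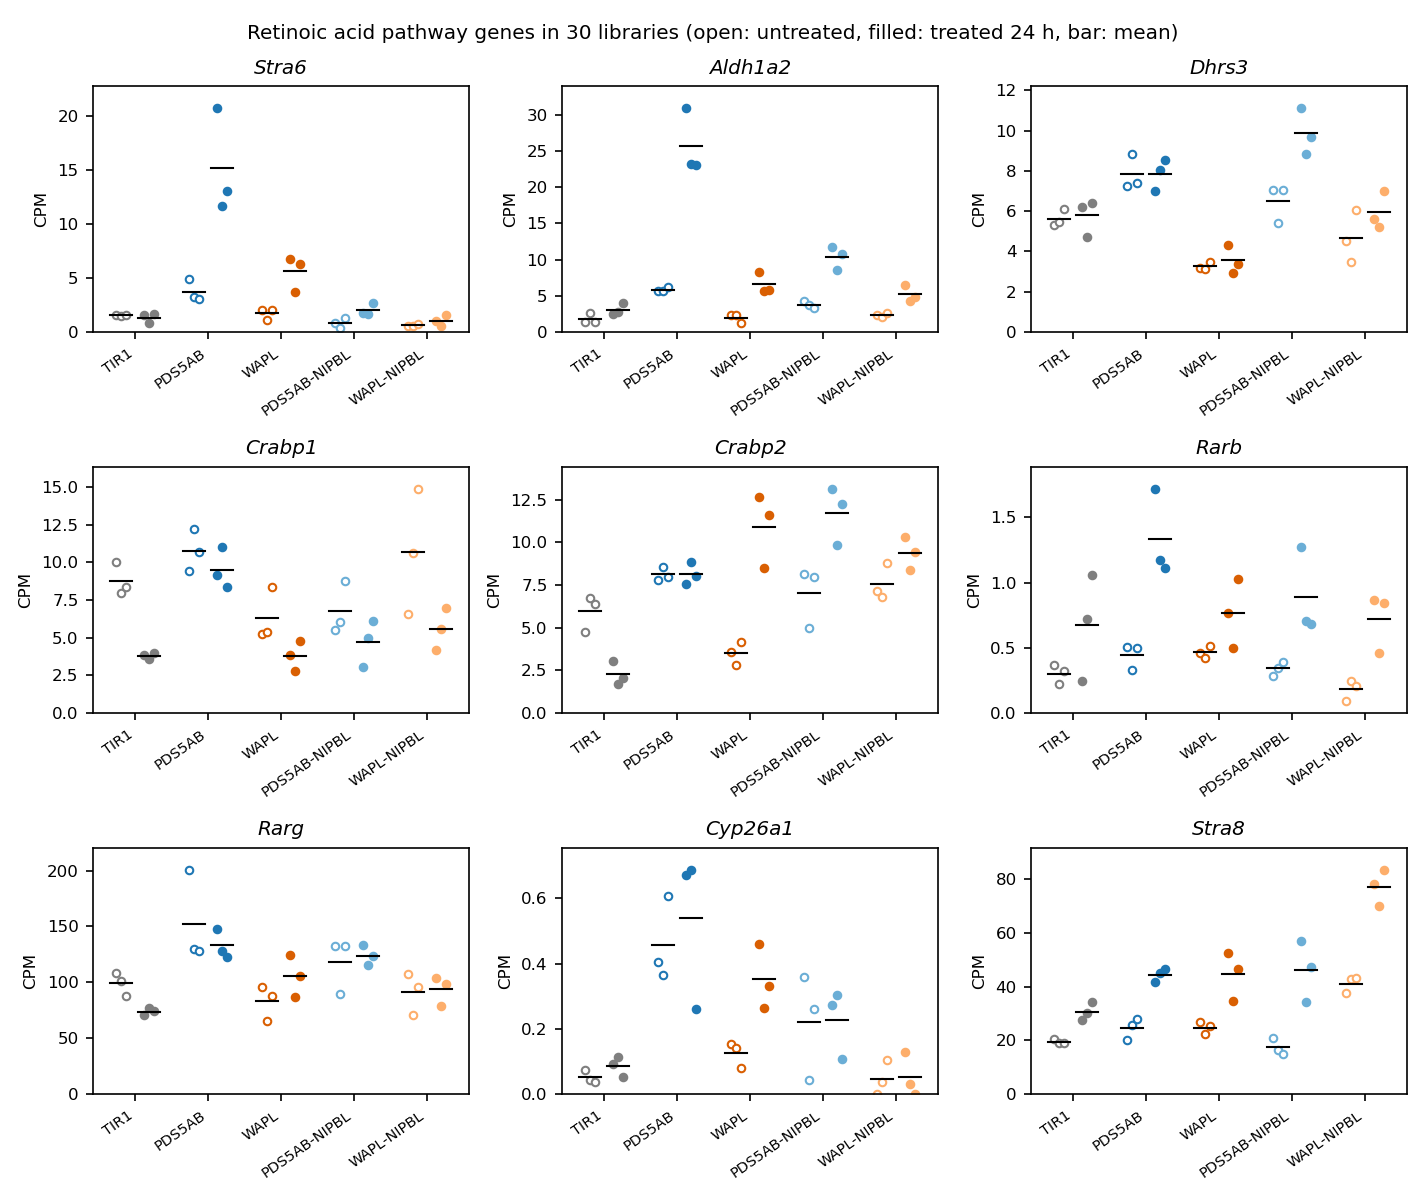
Level of each of the 9 genes in CPM (y axis, from 0, with a scale of its own per gene) in the 5 lines (x axis), with open points for untreated and filled points for treated libraries and a bar at the mean of 3. Aldh1a2 and Stra6 are highest in treated PDS5AB cells, at means of 25.7 and 15.1 CPM, and Stra8 is higher in treated than in untreated libraries of every line.

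Treatment was followed by higher RNA of Stra8 and Aldh1a2 in all 5 lines, the TIR1 control included. A gene counts as called where its adjusted p lay under 0.05 in edgeR's quasi-likelihood test over all genes tested. In TIR1 cells 4 of the 9 genes were called after auxin (2 higher, 2 lower), where 19.9% of all genes tested were called. In PDS5AB cells 4 rose and none fell, against 46% of all genes called and 25.8% that rose. In WAPL cells 4 rose and 1 fell, against 32.8% called and 17% that rose. In PDS5AB-NIPBL cells 6 rose and none fell, against 19.5% called and 11.4% that rose, and the 6 became 3 without untreated replicate 2. In WAPL-NIPBL cells 3 rose and 1 fell, against 8.57% called and 5.11% that rose. The median log2 fold change of the 9 genes was 0.85 in WAPL, 0.73 in PDS5AB-NIPBL, 0.35 in WAPL-NIPBL, 0.21 in PDS5AB and 0.04 in TIR1 cells, while that of all genes tested lay between -0.01 and 0.04. The share called in PDS5AB cells was thus close to that of all genes. Of all genes tested, 1.17% rose in each of the 5 effects and 0.8% fell in each. A lack of overlap between treated and untreated libraries, given below for single genes, was common. Per line, 14.4% (WAPL-NIPBL) to 29.6% (PDS5AB) of all genes stood higher in every treated library than in every untreated one. The share that stood lower in every treated library ran from 12.6% to 23.2%, with the same lines at the ends.

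**Figure D2:**
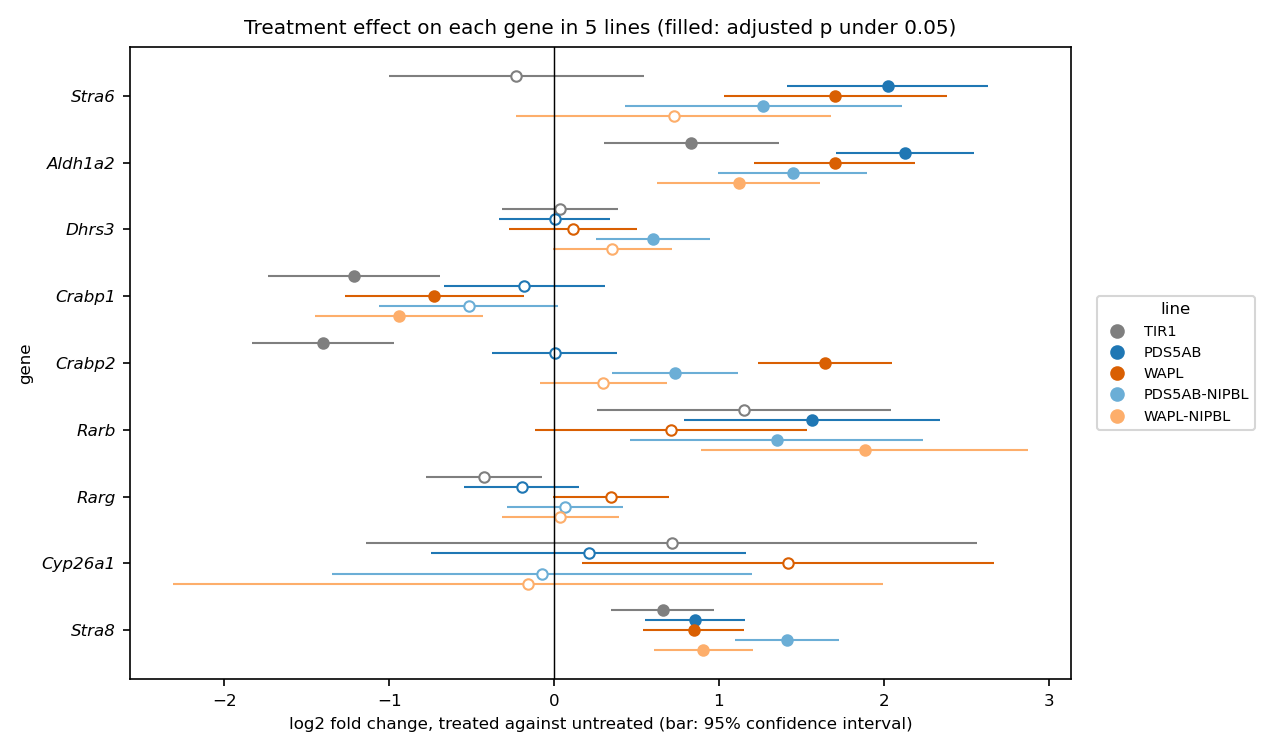
Log2 fold change of treated against untreated cells (x axis) for each gene (y axis) in the 5 lines, with 95% confidence intervals and filled points for adjusted p under 0.05. Stra8 and Aldh1a2 lie above 0 in all lines, whereas Crabp2 runs from -1.40 in TIR1 to 1.64 in WAPL cells.

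Stra6, the membrane receptor that takes up retinol from its carrier in serum, rose when PDS5A and PDS5B were lost, and likewise when WAPL was lost. The untreated PDS5AB libraries held 4.89, 3.24 and 3.04 CPM and the treated ones 20.7, 11.6 and 13.1 CPM, so that every treated library stood above every untreated one. The log2 fold change was 2.02 (SE 0.291, adjusted p = 1.34e-06, edgeR). In WAPL cells the untreated libraries held 2.01, 1.06 and 2.05 CPM and the treated ones 6.75, 3.73 and 6.32 CPM, again without overlap (log2 fold change 1.71, SE 0.325, edgeR adjusted p = 1.23e-04). In treated TIR1 cells Stra6 stood at 1.52, 0.792 and 1.67 CPM, against 1.54, 1.45 and 1.60 CPM before, and the groups overlapped (log2 fold change -0.23, 95% interval -1.003 to 0.54). The rise in PDS5AB-NIPBL cells was from 0.816 ± 0.482 to 2.01 ± 0.557 CPM (SD, n = 3), a log2 fold change of 1.27 (edgeR adjusted p = 0.024), a call that did not survive leaving out untreated replicate 1 or 2 (adjusted p = 0.0743 and 0.124) or treated replicate 3 (0.149). In WAPL-NIPBL cells the difference was not called (0.73, edgeR adjusted p = 0.398). An unrelated gene, Ccdc33, lies over Stra6 on the other strand, with no shared exon.

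Aldh1a2, the dehydrogenase that makes most of the retinoic acid of the early embryo, rose in each line, with the largest estimate in PDS5AB cells. By the test of the difference used below, that effect was not called apart from the WAPL or the PDS5AB-NIPBL effect. Without the filter on low counts the latter was called (edgeR adjusted p = 0.0417). In PDS5AB cells the untreated libraries held 5.70, 5.72 and 6.15 CPM and the treated ones 30.9, 23.2 and 23.0 CPM, far from overlapping (log2 fold change 2.13, SE 0.200, edgeR adjusted p = 7.39e-10). WAPL cells went from 2.29, 2.40 and 1.26 CPM to 8.36, 5.60 and 5.74 CPM (1.70, SE 0.234, edgeR adjusted p = 1.22e-06), PDS5AB-NIPBL cells from 3.79 ± 0.497 to 10.3 ± 1.62 CPM (SD, n = 3), a log2 fold change of 1.45, and WAPL-NIPBL cells from 2.37 ± 0.252 to 5.20 ± 1.19 CPM, one of 1.12. Both combined lines passed the test (edgeR adjusted p = 1.09e-05 and 0.00196), with no overlap of treated and untreated libraries. TIR1 cells given auxin went from 1.36, 2.60 and 1.35 CPM to 2.49, 2.74 and 4.04 CPM, 2 groups that overlapped (0.83, SE 0.254, edgeR adjusted p = 0.0191). This call did not hold without untreated replicate 1 (0.0888), untreated replicate 3 (0.106) or treated replicate 3 (0.133).

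Markers of primitive endoderm, an extraembryonic cell type that can arise in such cultures, were higher in sum after treatment in all 5 lines, as was Aldh1a2, TIR1 included, where Stra6 was not called. The sum of 8 of them (Gata4, Gata6, Sox17, Sox7, Dab2, Foxa2, Pdgfra and Afp) lay between 24.5 and 27.5 CPM in untreated and between 59.4 and 73.1 CPM in treated PDS5AB libraries. In WAPL cells it went from 10.3–13.2 to 38.2–54.1 CPM, in PDS5AB-NIPBL cells from 10.5–13.1 to 30.2–36.1 CPM and in WAPL-NIPBL cells from 5.78–6.21 to 14.3–15.7 CPM. In TIR1 cells it went from 7.76–8.89 to 10.2–11.2 CPM. Of the 7 markers tested, 1 rose in TIR1, 4 in PDS5AB, 5 in WAPL and 3 in each combined line, and none fell. Afp was too low to be tested and was at 0 in all libraries of untreated PDS5AB-NIPBL and of treated WAPL-NIPBL cells. Other classes moved too. The sum of 6 fibroblast markers went from 18.7–21.2 to 22.4–25.8 CPM in PDS5AB cells, where Col1a1, Col1a2 and Twist1 rose, and from 14.8–15.7 to 6.59–7.55 CPM in WAPL cells. It went from 15.6–18.8 to 11.3–14.3 CPM in TIR1 and from 11.1–13.3 to 8.68–8.82 CPM in WAPL-NIPBL cells, and overlapped in PDS5AB-NIPBL cells. The sum of 6 trophoblast markers went from 75.1–81.9 to 127–134 CPM in TIR1 and from 77.7–95.6 to 28.8–32.1 CPM in WAPL cells, and it was lower after treatment in both combined lines as well (61.1–68.6 to 30.8–35.8 CPM in WAPL-NIPBL, 50.7–56.8 to 30.7–34.5 CPM in PDS5AB-NIPBL). In PDS5AB cells the trophoblast sum was higher after treatment (47.4–49.2 to 53.5–56.4 CPM). Single markers could go the other way, since in WAPL cells Krt7 of the trophoblast and Twist1 of the fibroblast list rose. Pluripotency markers fell in the 4 degron lines, 7 of 8 in PDS5AB and in WAPL cells and 6 of 8 in each combined line. Of the 8, Zfp42 and Esrrb fell in these 4 lines and in TIR1 cells too, where Klf4, Tfcp2l1 and Dppa3 rose. The share of all genes tested that fell was 9.59% for TIR1, 20.2% for PDS5AB and 15.8% for WAPL. It was 3.45% for WAPL-NIPBL and 8.06% for PDS5AB-NIPBL. In bulk RNA a change in the share of a cell type and a change in the RNA per cell cannot be told apart, and the part of any of these cells in the rise of Aldh1a2 and Stra6 was not tested.

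**Figure D3:**
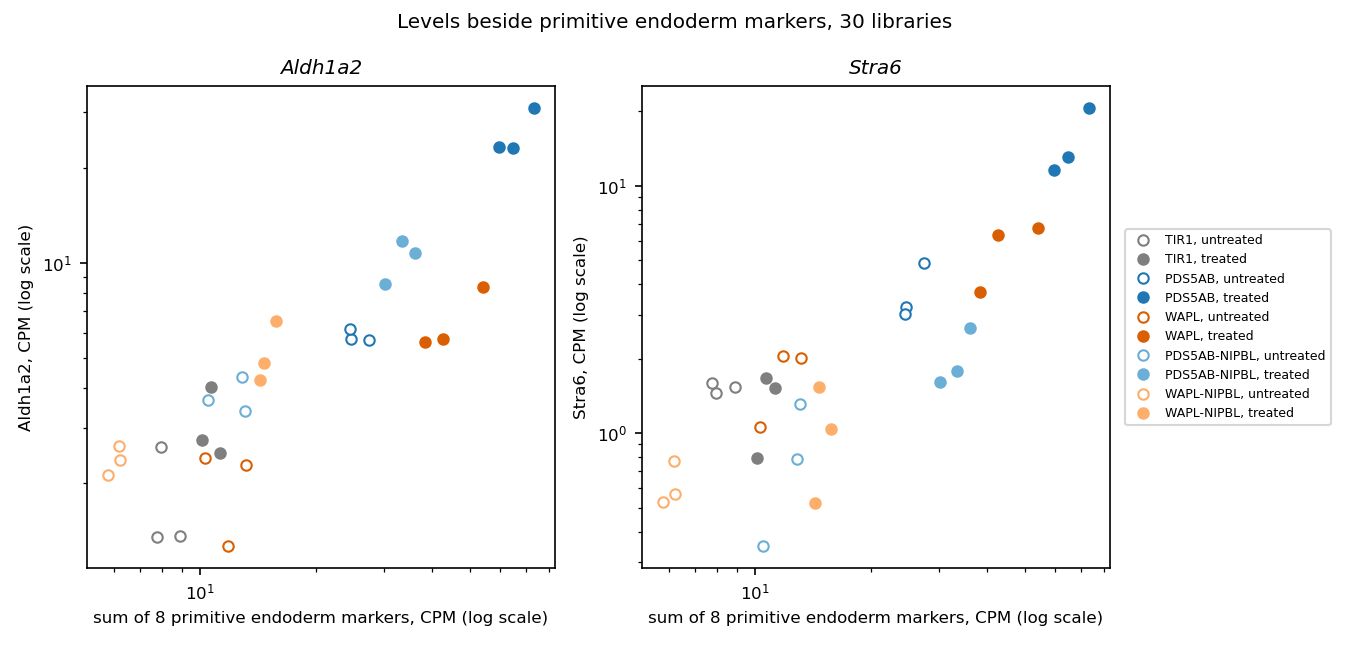
Aldh1a2 (left) and Stra6 (right) in CPM against the summed CPM of 8 primitive endoderm markers, all on log axes, with 1 point per library, open for untreated and filled for treated. Treated PDS5AB libraries lie at the upper right, at marker sums from 59.4 to 73.1 CPM.

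Dhrs3, the reductase that turns retinal back into retinol, was called in 1 line. In PDS5AB-NIPBL cells it went from 7.03, 5.40 and 7.08 CPM to 11.1, 8.84 and 9.71 CPM, without overlap (log2 fold change 0.60, SE 0.166, edgeR adjusted p = 0.00941). The adjusted p was 0.0618 without untreated replicate 2 and 0.0589 without treated replicate 1. In TIR1, PDS5AB and WAPL cells the log2 fold changes were 0.04, 0.00 and 0.11, with 95% intervals of -0.32 to 0.39, -0.33 to 0.34 and -0.27 to 0.50. In WAPL-NIPBL cells the value was 0.35 (edgeR adjusted p = 0.241), and 0.60 without untreated replicate 3, which was called (adjusted p = 0.0493).

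Crabp2, the carrier that hands retinoic acid to its nuclear receptors, moved in opposite directions in different lines. In TIR1 cells it fell from 4.78, 6.74 and 6.42 CPM to 3.07, 1.72 and 2.06 CPM (log2 fold change -1.40, SE 0.207, edgeR adjusted p = 1.43e-05). In WAPL cells it rose from 3.55, 2.79 and 4.13 CPM to 12.7, 8.48 and 11.6 CPM (1.64, SE 0.195, edgeR adjusted p = 9.38e-08). The treated and untreated libraries did not overlap in either line. In PDS5AB cells it stood at 8.13 ± 0.385 before and 8.15 ± 0.649 CPM after treatment (SD, n = 3), and the 95% interval of the log2 fold change was -0.37 to 0.38. PDS5AB-NIPBL cells rose from 7.03 ± 1.79 to 11.8 ± 1.70 CPM (0.73, edgeR adjusted p = 0.00445), and WAPL-NIPBL cells went from 7.59 ± 1.07 to 9.37 ± 0.953 CPM, which was not called (0.30, edgeR adjusted p = 0.382).

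Crabp1, the carrier linked to storage and breakdown of retinoic acid in the cytosol, was lower after treatment in all 5 lines and fell in 3. In TIR1 cells it fell from 9.99, 7.97 and 8.33 CPM to 3.83, 3.57 and 3.97 CPM, well apart (log2 fold change -1.21, SE 0.251, edgeR adjusted p = 8.75e-04). It fell by 0.94 on the log2 scale in WAPL-NIPBL cells (edgeR adjusted p = 0.012) and by 0.73 in WAPL cells (adjusted p = 0.0306). The WAPL call was lost without treated replicate 1 (0.0648), treated replicate 2 (0.185) or untreated replicate 3 (0.227), and the WAPL-NIPBL call without treated replicate 1 (0.0851) or untreated replicate 3 (0.177). In the PDS5AB line and its combined counterpart the log2 fold changes were -0.18 and -0.52 (edgeR adjusted p = 0.556 and 0.178). A fit with a term for replicate number, shared by all lines of a set of library numbers, is called paired here and below. With same-numbered libraries paired in this way, the PDS5AB-NIPBL value was called (-0.53, edgeR adjusted p = 0.017).

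Rarb, the receptor gene that retinoic acid itself induces, was scarce and higher after treatment in every line. In PDS5AB cells it rose from 0.506, 0.331 and 0.497 CPM to 1.72, 1.18 and 1.11 CPM, or from 10–18 to 34–46 counts, without overlap (log2 fold change 1.57, SE 0.373, edgeR adjusted p = 9.32e-04). In WAPL-NIPBL cells it rose from 0.0948, 0.247 and 0.210 CPM to 0.865, 0.459 and 0.842 CPM (1.88, SE 0.475, edgeR adjusted p = 0.00953), and in PDS5AB-NIPBL cells from 0.343 ± 0.0533 to 0.888 ± 0.336 CPM (SD, n = 3), a log2 fold change of 1.35 (edgeR adjusted p = 0.0234). The WAPL-NIPBL call was lost without untreated replicate 1 (0.0573), and the PDS5AB-NIPBL call without untreated replicate 1 (0.0868), untreated replicate 2 (0.0548) or treated replicate 1 (0.171). WAPL cells gave 0.71 (edgeR adjusted p = 0.178). TIR1 cells gave 1.15 (edgeR adjusted p = 0.055), which was called without treated replicate 1 (1.53, adjusted p = 0.00795). Exons of Top2b and Gm48162 overlap Rarb on the opposite strand, and the counting ignored strand, so these few counts are uncertain.

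Rarg, the receptor that dominated at the RNA level among the 9 genes, was not called in any treatment effect, though alternatives called it in TIR1, PDS5AB and WAPL cells. It stood at 99.1 ± 10.4 and 73.7 ± 3.24 CPM in untreated and treated TIR1 cells (SD, n = 3), a log2 fold change of -0.43 (edgeR adjusted p = 0.0734), and at 82.9 ± 15.8 and 106 ± 18.8 CPM in WAPL cells, one of 0.35 (edgeR adjusted p = 0.117). Every treated TIR1 library stood below every untreated one, and edgeR called the TIR1 value without the filter on low counts (adjusted p = 2.1e-05) and with these groups alone (2.95e-04). The WAPL value was called with same-numbered libraries paired (0.35, adjusted p = 0.00325), without the filter (2.46e-04) and without treated replicate 2 (0.0395), and the PDS5AB value without the filter (0.0334). In the other 3 lines the values lay between -0.20 and 0.07. Rara, the third receptor of the family and no member, was not called in any of the 5 effects either, and was between 37.1 and 97.7 CPM in group means.

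Cyp26a1, the enzyme that clears retinoic acid and is among its most sensitive targets, was at the edge of detection. It had 0 to 22 counts per library, and 3 or fewer in every library of untreated TIR1 cells and of both WAPL-NIPBL groups. In WAPL cells it went from 5, 4 and 2 counts to 12, 9 and 11 counts, groups that did not overlap, yet the log2 fold change of 1.42 (SE 0.599) was not called (edgeR adjusted p = 0.0691). In PDS5AB cells, which held the most, it stood at 0.458 ± 0.130 and 0.540 ± 0.241 CPM (SD, n = 3). In PDS5AB-NIPBL cells the log2 fold change was -0.07, with a 95% interval of -1.35 to 1.20, so that a modest change would not be detectable at this depth. TIR1 and WAPL-NIPBL cells gave no call either (edgeR adjusted p = 0.623 and 0.959).

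Stra8, which retinoic acid induces in germ cells ahead of meiosis, rose in every line. The untreated TIR1 libraries held 20.4, 19.02 and 18.9 CPM and the treated ones 27.6, 30.03 and 34.4 CPM (log2 fold change 0.66, SE 0.149, edgeR adjusted p = 0.0021). In PDS5AB-NIPBL cells it went from 20.7, 16.2 and 15.0 CPM to 56.8, 34.3 and 47.2 CPM (1.41, SE 0.151, edgeR adjusted p = 5.08e-08). Treated and untreated libraries were apart in these and in the other 3 lines, and the Stra8 call in all 5 effects held under each alternative except a 2-fold minimum, which it passed in PDS5AB-NIPBL cells alone. The log2 fold changes were 0.91 in WAPL-NIPBL, 0.86 in PDS5AB and 0.85 in WAPL cells (edgeR adjusted p = 6.32e-05, 1.71e-05 and 3.62e-05). The highest levels, 78.2, 69.9 and 83.3 CPM, were in treated WAPL-NIPBL cells, above every library of every other group.

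The summed level of 6 germ cell markers (Ddx4, Dazl, Sycp3, Sycp1, Mael and Taf7l) did not follow Stra8 in all lines. Its group mean went from 50.7 to 72.4 CPM in TIR1, from 39.9 to 55.1 in PDS5AB, from 51.3 to 57.6 in WAPL and from 49.3 to 65.9 in WAPL-NIPBL cells. In PDS5AB-NIPBL cells, where the log2 fold change of Stra8 was largest, the marker sum was 29.6 CPM (26.8–34.04) before and 28.7 CPM (26.04–31.3) after treatment. Of the 6 markers, 2 rose and 1 fell in TIR1, 4 rose in WAPL, 3 each in PDS5AB and WAPL-NIPBL, and 1 in PDS5AB-NIPBL cells. Among all genes tested, 10.4% rose in TIR1, 17% in WAPL, 25.8% in PDS5AB, 5.11% in WAPL-NIPBL and 11.4% in PDS5AB-NIPBL cells.

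The TIR1 effect was set against that of each degron line by a test of the difference. In PDS5AB cells 4 of the 9 effects differed from the TIR1 effect, against 26.3% of all genes. They were those of Stra6 (difference of log2 fold changes 2.25, SE 0.472, edgeR adjusted p = 6.5e-04), Aldh1a2 (1.30, adjusted p = 0.00357), Crabp2 (1.41, adjusted p = 3.08e-04) and Crabp1 (1.03, adjusted p = 0.0249). Crabp1 and Crabp2 fell in TIR1 cells and were not called in PDS5AB cells. The Crabp1 difference lost its call without PDS5AB untreated replicate 1 (0.0525) or treated replicate 2 (0.0722), or TIR1 untreated replicate 1 (0.0833) or treated replicate 2 (0.0619). In WAPL cells 3 effects differed, against 20.7% of all genes: Crabp2 (3.05, SE 0.284, edgeR adjusted p = 3.73e-09), Stra6 (1.94, adjusted p = 0.00497) and Rarg (0.77, adjusted p = 0.0194). The Rarg call was lost without WAPL untreated replicate 2 (0.0746) or treated replicate 1 (0.0685), or TIR1 untreated replicate 1 (0.0526). Aldh1a2 (0.87, edgeR adjusted p = 0.078) was not called, but it was without the filter on low counts (0.0154), in DESeq2 (0.0396) and without TIR1 treated replicate 3 (0.0286).

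The combined lines were set against TIR1 in the same way. TIR1 cells received auxin without dTAG-13, so an effect of that compound cannot be told apart from the depletion here. In PDS5AB-NIPBL cells Crabp2 (2.14, SE 0.277, edgeR adjusted p = 4.97e-06) and Stra8 (0.76, SE 0.212, adjusted p = 0.0197) differed, 2 genes against 10.1% of all genes. The Stra8 difference lost its call without PDS5AB-NIPBL untreated replicate 2 or 3 (0.0549 and 0.0655), its treated replicate 1 (0.0855) or replicate 1 of either TIR1 group (0.0522 and 0.0584). Without the filter on low counts Stra6 (adjusted p = 0.00123), Rarg (0.00213) and Crabp1 (0.0441) were called as well. Stra6 was also called without PDS5AB-NIPBL untreated replicate 3 (0.0336) and Rarg with the compared groups alone (0.0439). In WAPL-NIPBL cells Crabp2 differed (1.70, edgeR adjusted p = 1.78e-04), 1 gene against 7.04% of all genes, and Rarg was called too without the filter (0.0049). Crabp2 was the gene whose effect differed from that of TIR1 in all 4 degron lines. For Stra8 the differences in PDS5AB, WAPL and WAPL-NIPBL cells were 0.20, 0.19 and 0.25, with 95% intervals of -0.24 to 0.63, -0.25 to 0.62 and -0.18 to 0.68. These differences share the TIR1 libraries.

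The change of Crabp2 was smaller in WAPL-NIPBL than in WAPL cells. Each combined line differs from the line that shares its AID fusions by clone, RAD21-Halo and dTAG-13 besides NIPBL-FKBP. These cannot be told apart from NIPBL loss. The WAPL-NIPBL effect minus the WAPL effect was -1.35 for Crabp2 (SE 0.268, edgeR adjusted p = 0.00193), and it was the 1 gene of 9 called, against 5.19% of all genes tested. With same-numbered libraries paired Stra6 was called too (-1.02, adjusted p = 0.0415). The WAPL-NIPBL line already held more Crabp2 before treatment, 7.59 CPM against 3.49 CPM in untreated WAPL cells. After treatment the lines overlapped, at 8.39–10.3 CPM in WAPL-NIPBL and 8.48–12.7 CPM in WAPL cells. The PDS5AB-NIPBL effect minus the PDS5AB effect was called for 0 of the 9 genes by edgeR, against 9.46% of all genes. There Stra8 (0.56, edgeR adjusted p = 0.0898), Crabp2 (0.73, 0.0724), Dhrs3 (0.59, 0.105) and Aldh1a2 (-0.68, 0.146) came nearest, and the first 3 were called with same-numbered libraries paired (edgeR adjusted p = 0.0213, 0.00151 and 0.011). Unadjusted p was under 0.05 for these 4, and DESeq2 called 1 of the 9. The PDS5AB effect minus the WAPL effect was called for Crabp2 alone (-1.64, SE 0.266, edgeR adjusted p = 7.89e-05), against 12.5% of all genes, and with the pairing for Rarg as well (-0.53, adjusted p = 0.00377).

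The lines differed before any treatment. Untreated PDS5AB cells, compared with untreated TIR1 cells within 1 set of library numbers, differed at 5 of the 9 genes, against 32% of all genes called, and all 5 were higher. Aldh1a2 stood at 5.86 ± 0.257 against 1.77 ± 0.718 CPM (SD, n = 3), a log2 difference of 1.75 (SE 0.244, edgeR adjusted p = 1.12e-06). Cyp26a1 had 12, 11 and 22 counts against 2, 1 and 1, at least 3.94-fold higher when set against 3 counts per library (edgeR adjusted p = 8.6e-04). Stra6 (1.27, adjusted p = 0.00423), Rarg (0.62, adjusted p = 0.00452) and Dhrs3 (0.48, adjusted p = 0.0281) were the other 3. The Rarg call was lost without PDS5AB replicate 1, which held 200.2 CPM beside 130 and 128 CPM (adjusted p = 0.0866). The Dhrs3 call was lost without TIR1 replicate 1 or 2 or PDS5AB replicate 2 (adjusted p = 0.0934, 0.0786 and 0.136). Crabp2 and Stra8, at 0.45 and 0.34 (edgeR adjusted p = 0.0698 and 0.0908), were called as well without the filter on low counts (0.0137 and 0.00254) and with these groups alone (0.0332 and 0.0402), which made 7 of 9. Stra8 was also called without PDS5AB replicate 1 (0.0299). Primitive endoderm markers were higher in these cells too, 25.5 against 8.19 CPM in sum. Primitive streak and mesoderm markers were also higher (21.9–34.5 against 15.2–18.9 CPM). Trophoblast (47.4–49.2 against 75.1–81.9 CPM) and germ cell markers (35.5–42.7 against 49.2–51.9 CPM) were lower. The part of any of these in the difference was not tested.

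Untreated WAPL cells held less Dhrs3 (3.26 ± 0.177 against 5.63 ± 0.412 CPM, SD, n = 3; log2 difference -0.79, edgeR adjusted p = 0.00326) and less Crabp2 (-0.78, adjusted p = 0.00978) than TIR1 cells, 2 genes against 14% of all genes. The Crabp2 call was lost without TIR1 replicate 2 (0.0565) or WAPL replicate 2 (0.0783). Without the filter Stra8 (edgeR adjusted p = 0.00791), Crabp1 (0.0272) and Rarg (0.0356) were called as well, and Stra8 also with these groups alone (0.0235). Untreated PDS5AB-NIPBL cells held more Aldh1a2 (1.13, SE 0.257, edgeR adjusted p = 0.00102) and Cyp26a1 (adjusted p = 0.0411), 2 genes against 34.3% of all genes. Cyp26a1 had 10, 1 and 8 counts there against 2, 1 and 1, groups that overlapped. The Cyp26a1 call was lost without any 1 of the 3 TIR1 replicates (adjusted p from 0.0601 to 0.123), without PDS5AB-NIPBL replicate 1 or 3 (0.185 and 0.101), without the filter (0.0518) and in DESeq2 (0.0569). Rarg (0.00579) and Stra6 (0.0131) were called without the filter, and Stra6 without PDS5AB-NIPBL replicate 3 (0.0363). In PDS5AB-NIPBL cells the sum of primitive endoderm markers was 10.5–13.1 against 7.76–8.89 CPM in TIR1 cells, and that of 7 primitive streak and mesoderm markers 25.1–35.3 against 15.2–18.9 CPM. Their part in the differences was not tested. Untreated WAPL-NIPBL cells held more Stra8 (1.08, SE 0.150, edgeR adjusted p = 2.47e-06) and less Stra6 (-1.29, adjusted p = 0.0279), 2 genes against 28% of all genes. The Stra6 call was lost without any 1 of the 3 TIR1 replicates (0.0518 to 0.0668) or WAPL-NIPBL replicate 1 or 2 (0.0717 and 0.108), and Dhrs3 was called without WAPL-NIPBL replicate 3 (0.0471). The sum of primitive endoderm markers was 5.78–6.21 CPM in untreated WAPL-NIPBL, 10.3–13.2 CPM in untreated WAPL and 7.76–8.89 CPM in untreated TIR1 cells. That of fibroblast markers was 11.1–13.3, 14.8–15.7 and 15.6–18.8 CPM in the same order. Their part in these differences, and in that of WAPL-NIPBL from WAPL cells, was not tested.

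Each combined line also differed from the single-cofactor line that shares its AID fusions. Untreated PDS5AB-NIPBL cells held less Stra6 (-2.13, SE 0.370, edgeR adjusted p = 5.26e-05), Crabp1 (-0.66, adjusted p = 0.0336), Aldh1a2 (-0.63, adjusted p = 0.0272) and Stra8 (-0.50, adjusted p = 0.0114) than PDS5AB cells, 4 genes against 32.7% of all genes. The Stra6 call held in every alternative run. The Aldh1a2 call was lost without replicate 2 or 3 of either line (0.0535 to 0.108), and the Stra8 call without PDS5AB replicate 3 (0.077) or PDS5AB-NIPBL replicate 2 or 3 (0.0503 and 0.0762). The Crabp1 call was lost without PDS5AB replicate 2 or 3 (0.125 and 0.0701) or PDS5AB-NIPBL replicate 1 or 2 (0.154 and 0.12), and in DESeq2 (0.0532). Rarg was called without the filter (9.22e-05). Primitive endoderm markers summed to 10.5–13.1 CPM in these cells against 24.5–27.5 CPM in PDS5AB cells, and fibroblast markers to 9.93–12.3 against 18.7–21.2 CPM. Germ cell (26.8–34.04 against 35.5–42.7 CPM) and neural progenitor markers (13.3–14.3 against 17.3–20.2 CPM) were lower too. Trophoblast (50.7–56.8 against 47.4–49.2 CPM) and pluripotency markers (5583–5851 against 4959–5237 CPM) were higher. Their part was not tested. Untreated WAPL-NIPBL cells held more Crabp2 (1.13, SE 0.200, edgeR adjusted p = 1.96e-04), Stra8 (0.74, adjusted p = 8.42e-04) and Crabp1 (0.77, adjusted p = 0.0362) and less Stra6 (-1.44, adjusted p = 0.0264) than WAPL cells, 4 genes against 10.7% of all genes. The Crabp1 call was lost without replicate 1 or 2 of WAPL cells (0.183 and 0.14) or replicate 2 or 3 of WAPL-NIPBL cells (0.0865 and 0.341), in DESeq2 (0.059) and with these groups alone (0.0725). The Stra6 call was lost without any 1 of the 3 WAPL-NIPBL replicates (0.0502 to 0.117) or WAPL replicate 1 or 3 (0.118 and 0.0977). Dhrs3 (0.52, edgeR adjusted p = 0.0677) was called without the filter (0.046), in DESeq2 (0.046) and without WAPL-NIPBL replicate 2 (0.0158).

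The rest of the pathway was read from a list of 57 further retinoid genes, of which 48 were tested. In TIR1 cells 12 rose and 8 fell, 22 and 7 did in PDS5AB, 20 and 9 in WAPL, 8 and 2 in WAPL-NIPBL, and 13 and 3 in PDS5AB-NIPBL cells. With same-numbered libraries paired, the 10 calls in WAPL-NIPBL cells became 18 and the 16 in PDS5AB-NIPBL cells 24, and without PDS5AB-NIPBL untreated replicate 3 these 16 became 10. For comparison, 10.4% of all genes rose and 9.59% fell in TIR1, 25.8% and 20.2% in PDS5AB, 17% and 15.8% in WAPL, 5.11% and 3.45% in WAPL-NIPBL, and 11.4% and 8.06% in PDS5AB-NIPBL cells. The median log2 fold change of the 48 genes lay between 0.11 and 0.29. In all 5 effects 4 of them rose (Zfp703, Nr2f2, Rec8 and Stra6l) and 0 fell.

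Among genes known to respond to retinoic acid, 7 of 14 tested rose and 0 fell in TIR1 cells. In PDS5AB cells 9 rose and 2 fell, in WAPL cells 9 and 1, in WAPL-NIPBL cells 5 and 0, and in PDS5AB-NIPBL cells 5 and 1. Zfp703, a transcriptional corepressor, had the largest called change among the 48 genes, of those with a mean of 50 counts or more, in each of the 5 effects. It went from 1.35 ± 0.281 to 5.38 ± 1.01 CPM in TIR1 cells and from 5.03 ± 0.636 to 26.7 ± 5.84 CPM in PDS5AB cells (SD, n = 3), log2 fold changes of 1.97 and 2.41. In the other 3 lines it rose by 1.59 to 1.69. Cdx1, a homeobox gene, rose by 0.98 in TIR1 and by 0.55 in PDS5AB-NIPBL cells. Skida1 fell by 1.44 in PDS5AB, by 0.86 in WAPL and by 0.68 in PDS5AB-NIPBL cells. An exon of Gm45371 overlaps Zfp703 on the other strand, so its counts are uncertain. Rec8, the meiosis-specific cohesin subunit, was singled out after its values were seen. It went from 17.02 ± 0.673 to 28.5 ± 2.68 CPM in TIR1 and from 22.5 ± 2.26 to 60.4 ± 5.08 CPM in PDS5AB cells, and its log2 fold changes were 0.47 in WAPL-NIPBL, 0.67 in PDS5AB-NIPBL, 0.74 in TIR1, 0.995 in WAPL and 1.42 in PDS5AB cells.

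Of 10 synthesis genes tested, 0 rose and 2 fell in TIR1 cells, 4 rose and 2 fell in PDS5AB and 5 rose and 2 fell in WAPL cells. In PDS5AB-NIPBL cells 3 rose and in WAPL-NIPBL cells 2, and 0 fell in either. Rdh10, which oxidises retinol to retinal, rose by 1.16 in WAPL cells, from 6.48 ± 0.720 to 14.5 ± 1.67 CPM (SD, n = 3), by 0.55 in WAPL-NIPBL, by 0.88 in PDS5AB-NIPBL and by 1.26 in PDS5AB cells (edgeR adjusted p = 1.1e-08, 0.00461, 3.53e-06 and 6.84e-10). Aldh1a3, a second enzyme that makes retinoic acid, rose by 1.32 in WAPL, by 0.66 in PDS5AB-NIPBL and by 0.96 in PDS5AB cells. Of 6 transport genes, Stra6l, a relative of Stra6, rose in all 5 lines by 0.88 to 1.37, and Fabp5, a carrier that passes retinoic acid to another receptor, fell by 1.19 in WAPL-NIPBL and by 0.90 in WAPL cells. Of 3 other breakdown genes, 2 rose in PDS5AB cells and 0 changed in the other 4 effects at the threshold. Cyp2s1, one of these, rose there by 1.77, from 15.7 ± 1.07 to 53.7 ± 2.33 CPM, with an exon of Gm26707 over it on the other strand. Zfp423, a cofactor of retinoic acid receptors, fell by 1.34 in TIR1 and by 0.88 in PDS5AB-NIPBL cells and rose by 0.94 in WAPL cells.

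**Figure D4:**
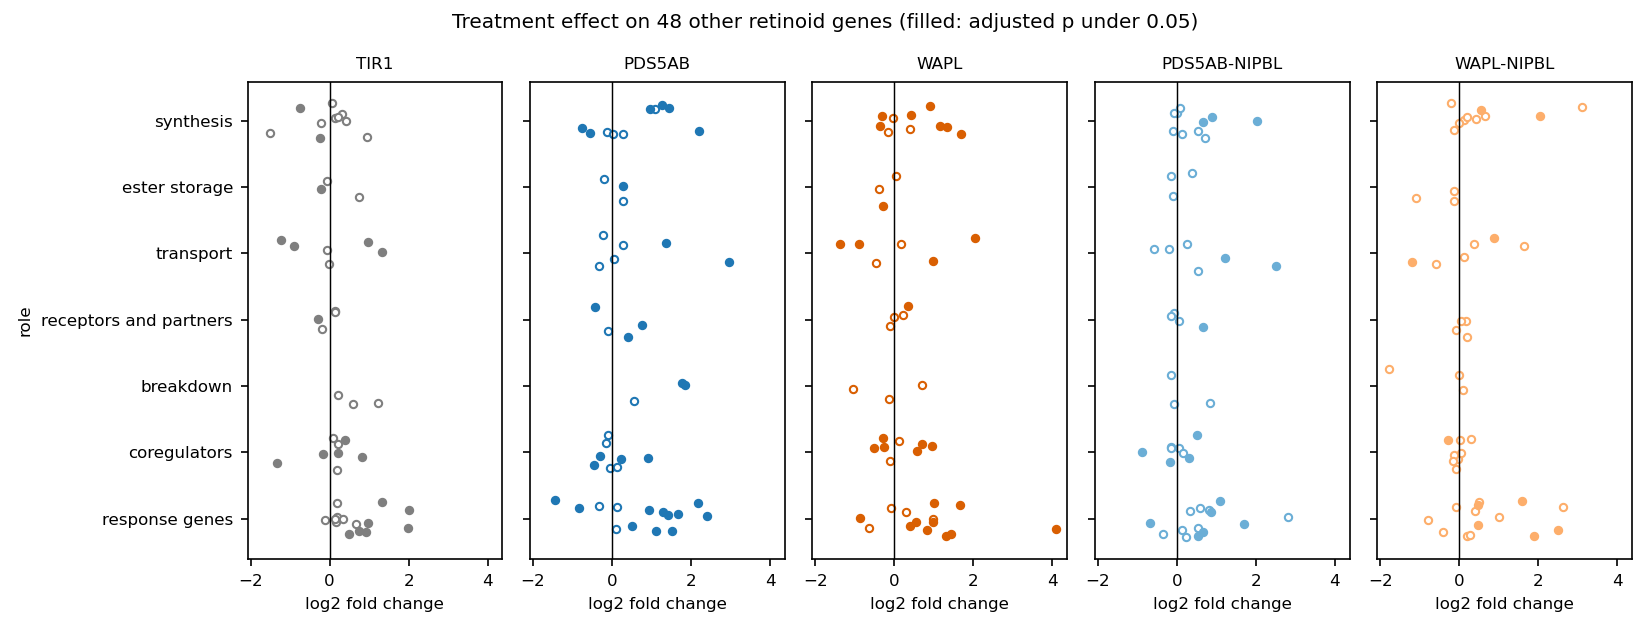
Log2 fold change of treated against untreated cells (x axis) of the 48 other retinoid genes tested, by role (y axis), in 1 panel per line, with filled points for adjusted p under 0.05 and a vertical jitter that carries no value. Among the response genes, filled points to the right of 0 outnumber those to the left in each panel, 7 to 0 in TIR1 and 9 to 2 in PDS5AB cells.

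The 9 genes did not share 1 pattern over the 10 group means of log2 CPM. Pearson's r was highest between Cyp26a1 and Stra6 (0.83) and between Rarb and Aldh1a2 (0.82), and lowest between Rarb and Crabp1 (-0.40). Aldh1a2 and Stra6 gave 0.75, and Crabp1 with Aldh1a2 -0.02. These values describe 10 group means that share lines and library sets. Among 12934 genes searched in the same way, Exoc7 (r = 0.99) and Igfbp5 (0.98) were most like Aldh1a2, Fndc1 (0.98) and Trim62 (0.98) most like Stra6, and Nudt7 (0.98) and Gatm (0.98) most like Cyp26a1. The nearest to Stra8 were Adcy6 (0.94) and Casp6 (0.93), and to Rarb Lrig2 (0.93) and Rassf8 (0.93). Bex2 (0.98) and Cep55 (0.97) were nearest to Rarg, Camk2b (0.94) and Zfyve28 (0.93) to Crabp1, Zfp128 (0.93) and Pdlim2 (0.92) to Crabp2, and Txndc15 (0.97) and Spop (0.95) to Dhrs3. Of these 18 genes, 7 were also among the 10 most alike by both Spearman's rho over the groups and Pearson's r over the 30 libraries. They were Exoc7, Fndc1, Trim62, Adcy6, Bex2, Pdlim2 and Txndc15. Over the 30 libraries, Lrig2 with Rarb ranked 1204th (r = 0.53) and Cep55 with Rarg 1030th (r = 0.55). As the highest of 12934 genes over 10 means, the r values above are high by selection.

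In the order of group means, treated PDS5AB cells stood first for Aldh1a2, Stra6, Rarb and Cyp26a1, and apart from the next group for Aldh1a2 and Stra6. Treated WAPL-NIPBL cells stood first for Stra8 and treated PDS5AB-NIPBL cells for Dhrs3, each apart from the next group. For Dhrs3, though, the lowest library of the first group (8.84 CPM) lay below the highest of untreated PDS5AB cells (8.86 CPM). Every neighbouring pair in the order overlapped for Rarb, Rarg, Crabp1 and Cyp26a1. For Crabp2 only untreated TIR1 and untreated WAPL cells, 8th and 9th in the order, did not overlap as neighbours.

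The 9 genes lie on 7 chromosomes of GRCm38 in the deposited table. Stra6 (9, 58063788 to 58153996, plus strand), Aldh1a2 (9, 71215789 to 71296243, plus) and Crabp1 (9, 54764748 to 54773110, plus) share chromosome 9. Rarb (14, 16430839 to 16819156, minus), Rarg (15, 102234938 to 102257517, minus) and Cyp26a1 (19, 37697798 to 37701536, plus) lie apart from them. Crabp2 is on chromosome 3 (87948666 to 87953376, plus), Dhrs3 on chromosome 4 (144892827 to 144928209, plus) and Stra8 on chromosome 6 (34920163 to 34939344, plus).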

How the data were processed

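The members and gene lists were chosen with earlier results of these data known. The authors deposited raw fragment counts for each gene, made with featureCounts 2.0.1 in paired-end mode without a strand or multi-mapping option on GENCODE vM23 models of GRCm38, per the file headers. The submitters' processing notes also name cutadapt, STAR 2.7.7a and deepTools. The labels describe stranded polyA libraries. Symbols were matched for 55154 of 55421 identifiers (99.5%).

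From the counts, edgeR 4.0.16 (R 4.3.3) fitted all 30 libraries with 10 group means and 20 residual degrees of freedom, after filterByExpr (minimum count 10) and TMM scaling (factors 0.950 to 1.13). Quasi-likelihood F-tests gave 18 comparisons (5 treatment effects, 7 differences, 6 baselines), each with Benjamini-Hochberg adjustment over 19868 genes. Standard errors were derived from the F statistic. CPM are TMM-scaled, and RPKM divides them by the deposited exon length. Replicates correlated at r of at least 0.987, and no 2 libraries were identical.

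Replicate numbers in the labels were checked as pairs by the correlation of deviations from group means. It lay between 0.109 and 0.333 in the 4 degron lines, which pairs them, and between -0.01 and 0.057 in TIR1 cells, which does not. The block for replicate number was fitted within each set of library numbers, with its terms shared by all lines of the set. Whether same-numbered libraries of different lines go together was not checked.

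All 9 members are named. Of the other listed genes, the 4 largest called changes per treatment effect with a mean of 50 counts or more are named, and the 2 genes most like each member by Pearson's r over group means. A gene that this rule selects is not reported here by name. Alternatives were RLE size factors, no filter on low counts, the replicate block, the compared groups alone, DESeq2 1.42.0, a 2-fold minimum and leaving out each replicate. Bounds set groups with 3 counts or fewer in every library against 3 counts per library. Promoter windows (250 bases before to 50 after a start) came from RefSeq, GRCm38.p6.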

Additional observations from a re-analysis of the deposited data

Results flagged for a closer look

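Treatment effects of lines differed, by a test of the difference itself, in 12 cases among the 9 genes in 7 differences (edgeR, adjusted p under 0.05). The share of all genes called ran from 5.19% in WAPL-NIPBL minus WAPL to 26.3% in PDS5AB minus TIR1. Crabp2 made up 6 of them. Its effect exceeded the TIR1 effect by 3.05 in WAPL, 2.14 in PDS5AB-NIPBL, 1.70 in WAPL-NIPBL and 1.41 in PDS5AB cells on the log2 scale. It was -1.35 in the WAPL-NIPBL minus the WAPL effect and -1.64 in the PDS5AB minus the WAPL effect. These 6 values kept their call under every alternative run for single genes.

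Stra6 exceeded the TIR1 effect by 2.25 in PDS5AB and by 1.94 in WAPL cells, and Aldh1a2 by 1.30 in PDS5AB cells. Crabp1 exceeded it by 1.03 in PDS5AB, Rarg by 0.77 in WAPL and Stra8 by 0.76 in PDS5AB-NIPBL cells. These last 3 calls were each lost in 3 to 5 fits that left out 1 replicate. All differences from TIR1 cross the 2 sets of library numbers, whose part was not tested. Those of the combined lines also include dTAG-13, which TIR1 cells did not receive.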

How the results depend on the processing

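Of 54 calls over the 9 genes and 18 comparisons, 34 held under every alternative other than the 2-fold minimum and 27 under that too. Of the 23 that were treatment effects, 16 and 11 did. A further 30 gene comparisons were called only under some alternative. In direction, 1 value reversed: Rarg in the PDS5AB effect, uncalled at -0.20, ran from -0.32 to 0.048 when each replicate was left out, the last without PDS5AB untreated replicate 1, and the cause was not tested. Counts of the 9 genes called moved by over 1.5 times as follows, with smaller moves named as such where given. A 2-fold minimum, which by its construction calls fewer, left 2 in the TIR1, 3 in the WAPL and 2 in the WAPL-NIPBL effect, 1 in the PDS5AB-NIPBL minus TIR1 difference, and, of untreated cells, 3 in PDS5AB and 0 in WAPL against TIR1, 1 in PDS5AB-NIPBL against PDS5AB and 2 in WAPL-NIPBL against WAPL. The replicate block gave 6 for PDS5AB-NIPBL minus TIR1 (adding Stra6, Rarg, Crabp1 and Dhrs3), 2 for WAPL-NIPBL minus TIR1 (adding Rarg), 3 for PDS5AB-NIPBL minus PDS5AB, 2 for WAPL-NIPBL minus WAPL, 2 for PDS5AB minus WAPL, and 5 each for untreated WAPL and untreated PDS5AB-NIPBL against TIR1. It also called 18 other retinoid genes in the WAPL-NIPBL effect, where 10 were called without it. In the TIR1 effect it called Rarg and Rarb (edgeR adjusted p = 0.00129 and 0.0305), and in WAPL minus TIR1 Aldh1a2 (0.0477); the numbers do not pair TIR1 libraries. Smaller moves with the block included 7 for untreated PDS5AB against TIR1 (adding Stra8 and Crabp2), and 5 each for untreated PDS5AB-NIPBL against PDS5AB (adding Rarg) and WAPL-NIPBL against WAPL (adding Dhrs3, 0.51, edgeR adjusted p = 0.00974). The block also added Crabp2 in untreated WAPL-NIPBL against TIR1 cells (0.36, edgeR adjusted p = 0.0226). No filter on low counts gave 5 for PDS5AB-NIPBL minus TIR1, 2 for WAPL-NIPBL minus TIR1, 3 for PDS5AB-NIPBL minus PDS5AB, 2 for PDS5AB minus WAPL and 5 for untreated WAPL against TIR1. DESeq2 gave 1 for PDS5AB-NIPBL minus PDS5AB and 1 for untreated PDS5AB-NIPBL against TIR1, where the compared groups alone also gave 1 (Cyp26a1 was not tested there). Apart from the 2-fold minimum, the cause was not tested.

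Leaving out each replicate gave 3 to 5 of the 9 in the TIR1, 4 to 4 in the PDS5AB, 4 to 5 in the WAPL, 3 to 6 in the PDS5AB-NIPBL and 3 to 4 in the WAPL-NIPBL effect. Against the TIR1 effect it gave 3 to 4 in PDS5AB, 2 to 4 in WAPL, 1 to 2 in PDS5AB-NIPBL and 1 to 1 in WAPL-NIPBL cells, and 0 to 2 for PDS5AB-NIPBL minus PDS5AB. Of untreated cells against TIR1 it gave 4 to 5 in PDS5AB, 1 to 2 in WAPL, 1 to 2 in PDS5AB-NIPBL and 1 to 3 in WAPL-NIPBL cells, 1 to 4 for PDS5AB-NIPBL against PDS5AB and 2 to 3 for WAPL-NIPBL against WAPL. For the other retinoid genes it gave 14 to 17 in TIR1, 28 to 30 in PDS5AB, 21 to 25 in WAPL, 10 to 15 in PDS5AB-NIPBL and 8 to 11 in WAPL-NIPBL cells. Depth limits Cyp26a1 and Rarb most, at means of 6.37 and 18.1 counts per library.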
